A study of Mus musculus with 22 samples.

Results

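The Eomes locus was described as all listed peaks that overlapped the window from 118.37 to 118.41 Mb of chromosome 9 in mouse build mm9. The 10 lists held 20 such peaks among 110069 in all, of which 6 among 79494 were H3K4me3 peaks and 14 among 30575 were H3K27me3 peaks. The window had been selected on the presence and fold enrichment of its H3K4me3 peaks, which an earlier look at these lists had shown in progenitors and not in neurons, so the presence of peaks is a description and was not tested. The lists give positions and no gene names, and Eomes is the gene for which the window was set.

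Chromatin immunoprecipitation and sequencing of both histone marks was done on cells purified from the neocortex of C57BL/6JOlaHsd mouse embryos. Neuroepithelial cells (NEC), the founder progenitors, came from embryonic day 9.5 (E9.5). The E14.5 groups were aRG-P, the apical radial glia that the labels call proliferative, aRG-N, those called neurogenic, bRG, or basal radial glia, and neurons, written N. No genetic change or treatment is given for any group, and how the cells were purified is not given in the sources used here. Each cell type and mark had 2 samples, which the labels call technical replicates for aRG-N H3K27me3, and 1 list called on the combined samples. No value below therefore has a spread between replicates, the read depth is unknown, and a mark on more cells cannot be told apart from more of the mark per cell. The labelled cell types could not be checked against marker genes, since the gene table used here follows another build.

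Eomes, also called Tbr2, encodes a T-box transcription factor. In the developing neocortex it marks the basal intermediate progenitors, which arise from apical radial glia, divide away from the ventricle and make neurons, and it is switched off as their daughters become neurons. H3K4me3 is the mark that SET1 and MLL methyltransferase complexes place at active and poised promoters, and H3K27me3 is placed by Polycomb repressive complex 2 over silent developmental genes. Peaks of both marks over the same bases are common at developmental regulators, and they can come from the same chromosome copies or from different cells of a mixture.

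The bases before the gene start are shown because H3K4me3 is a promoter mark and the lists hold peaks near transcripts. The RefSeq table used here holds 1 start for Eomes, in build GRCm38.p6, whose positions do not apply to the mm9 peaks. Whether a peak covers these bases was therefore not read from positions. The 250 bases before the start lie on the plus strand at chr9:118477939-118478188 of GRCm38.p6.
Eomes: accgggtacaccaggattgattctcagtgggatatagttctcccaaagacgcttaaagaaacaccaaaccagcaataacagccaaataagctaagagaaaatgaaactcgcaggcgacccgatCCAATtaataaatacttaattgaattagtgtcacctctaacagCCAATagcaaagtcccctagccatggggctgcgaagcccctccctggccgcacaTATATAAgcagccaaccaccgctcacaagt
Capitals mark matches at position -30 to TATATAA, the letters of a core promoter element bound by the TATA-binding protein, and to CCAAT at positions -127 and -84, counted from the gene start. On either strand TATATAA was found in 3.04% and CCAAT in 33.8% of the 32851 promoters of that table, read over the same length. Neither CANNTG, the E-box core of basic helix-loop-helix factors (66.2% of promoters), nor TCACACC, part of a T-box site (3.33%), is in these letters. The motif letters were chosen after the sequence was seen, and CCAAT and TATATAA do not overlap here. The bases held 8 CpG dinucleotides, against a median of 6 over all promoters, and a GC content of 46.4%, against a median of 52.4%.

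H3K4me3 at the locus was long and strong in aRG-N, long in bRG, short and weak in aRG-P and NEC, and not listed in N. The aRG-N list held 1 peak of 5001 bp, from 118386640 to 118391640, with a fold enrichment of 20.3 and a −log10 q of 64.2. Both are values of the authors' peak caller. By width it ranked 33 of the 14801 aRG-N peaks, at percentile 99.8. By fold enrichment it stood at percentile 94.4, percentile meaning the share of a list's peaks at or below the value.

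The bRG list held 3 H3K4me3 peaks here. The main peak, from 118387531 to 118390498, was 2968 bp wide with a fold enrichment of 7.96 and a −log10 q of 17.3. Its width stood at percentile 98.9 of the bRG list, while its fold enrichment stood at percentile 43.6, so in bRG the peak was wide without being strong. To its left lay peaks of 424 bp, from 118386676 to 118387099 (fold enrichment 5.44, −log10 q 7.53), and of 448 bp, from 118386030 to 118386477 (3.90 and 2.81 for the same quantities). The outermost peak overlapped no H3K4me3 peak of another cell type. Of 17229 regions made by joining touching H3K4me3 peaks of all cell types, 0.168% were found in the bRG list alone.

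In the other progenitors the mark was short and low in its list, and in aRG-P it was marginal. The aRG-P peak, from 118387641 to 118387952, was 312 bp wide with a fold enrichment of 4.71 and a −log10 q of 4.22, at percentile 10.1 of its list by fold enrichment and 19.05 by width. The NEC peak, from 118387957 to 118388353, was 397 bp wide with a fold enrichment of 7.39 and a −log10 q of 10.03, at percentile 18.4 by fold enrichment and 16.9 by width. The aRG-P and NEC peaks did not overlap each other, although both lay inside the main bRG peak and inside the aRG-N peak. Their widths were in the lower part of their lists, whose narrowest peaks measured 182 bp in aRG-P and 183 bp in NEC. A −log10 q of at least 5 would remove the aRG-P peak. With H3K4me3 lists cut to the 14801 peaks highest by −log10 p, both peaks fell among ties at the cut. They were dropped there by the order of chromosome and position, so nothing is read from their loss. By fold enrichment the NEC peak ranked 14575 and the aRG-P peak 14368, inside the 14801.

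**Figure D1:**
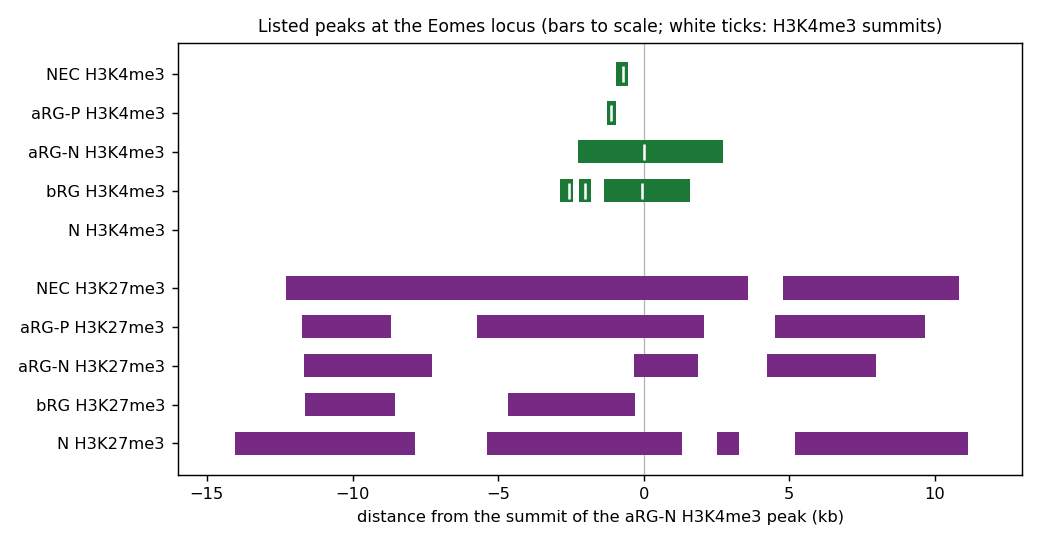
Listed peaks at the Eomes locus, with distance in kb from the summit of the aRG-N H3K4me3 peak on the x axis and 1 row per cell type and mark. Green bars are H3K4me3 peaks with their summits as white ticks and purple bars are H3K27me3 peaks. The aRG-N and bRG summits lie 66 bp apart, the N H3K4me3 row is empty, and the aRG-N H3K27me3 row has a gap of 6936 bp left of the summit.

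The H3K4me3 summits separated the wide peaks from the short ones. The summit of the main bRG peak, at 118388842, lay 66 bp from the aRG-N summit at 118388908. The NEC summit, at 118388204, and the aRG-P summit, at 118387789, both lay further left. No base of the locus was under H3K4me3 in all 4 progenitor lists, and 709 bp were under it in 3 of them. The bRG peaks shared 3392 bp with the aRG-N peak, which was 88.3% of the bRG length and 67.8% of the aRG-N length.

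In N no H3K4me3 peak was listed at the locus. The caller's peak numbers rose along each chromosome in all 10 lists, so a missing number shows a call that is not in the list used here. The N peaks listed on either side, 356.0 kb apart, had consecutive numbers. The N caller therefore made no H3K4me3 call anywhere between them. All 6 progenitor H3K4me3 peaks of the locus thus lacked an overlapping peak in N. Over the whole lists this held for 23.4% of NEC, 7.11% of aRG-P, 10.8% of aRG-N and 6.58% of bRG peaks, and since the locus was chosen for this absence nothing is read from its count.

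Right of the locus, calls outside the lists did exist. Between the aRG-N peak and the next listed H3K4me3 peak, 23.6 kb further on, 3 aRG-N calls were not in the list. Between the NEC peak and that next listed peak, a stretch of 26.9 kb that begins inside the aRG-N peak, 1 NEC call was not in the list, and 1 more was missing in the 328.7 kb to the left of the NEC peak. In aRG-P and bRG the number was 0 on either side. Where inside these stretches the calls lay is unknown. The H3K4me3 of aRG-N and NEC may therefore be longer here than the 5001 and 397 bp that were listed.

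Between cell types the H3K4me3 length differed more at Eomes than at nearly all other regions marked in the 4 progenitor lists. In the region from 118386640 to 118391640 the mark covered 5001 bp in aRG-N, against 312 bp in aRG-P, a ratio of 16.0. The median ratio over 11930 such regions was 1.26 and the highest ratio of any other region was 12.0, so Eomes ranked first. For bRG over aRG-P the lengths were 3392 and 312 bp, a ratio of 10.9 that again ranked first, against a median of 1.11 and 6.48 in the next region. With peaks joined across gaps up to 3000 bp the ranks were 2 and 3. Regions without an aRG-P peak have no ratio and were not ranked. Both Eomes ratios rest on the short and weak aRG-P peak, with a −log10 q of 4.22. At a −log10 q of at least 5 that peak is gone and Eomes has no ratio. All of these ranks are descriptions of the lists, since the locus was chosen with such values known.

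**Figure D2:**
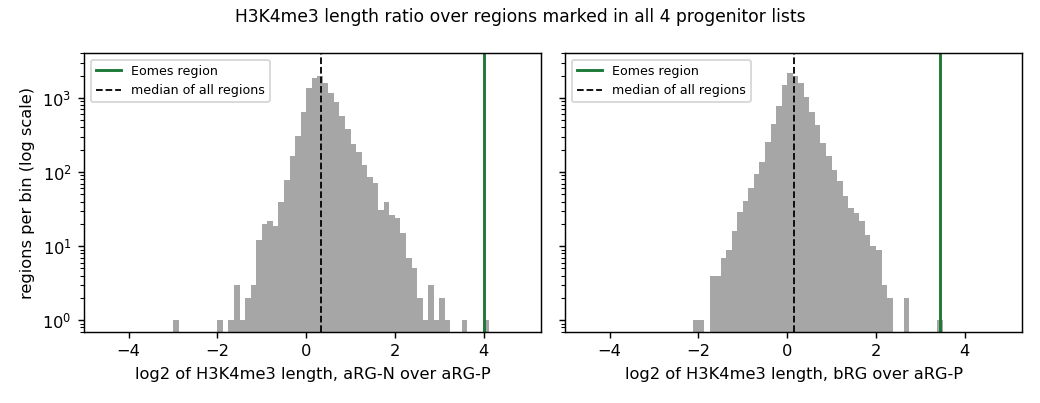
Distribution over 11930 regions marked in all 4 progenitor lists of the log2 ratio of H3K4me3 length in aRG-N (left) or bRG (right) over aRG-P, in bins on the x axis and with the number of regions per bin on a log y axis. The green line is the Eomes region, at ratios of 16.0 and 10.9, and the dashed line is the median of all regions, at 1.26 and 1.11.

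Against NEC the picture was close to this. Eomes H3K4me3 covered 5001 bp in aRG-N, against 397 bp in NEC, a ratio of 12.6 that ranked 2 of 11930, with a median of 0.828. An unlisted NEC call inside the region would lower this ratio and the next. In bRG it covered 3392 bp of this region, against 397 bp in NEC, a ratio of 8.54 at rank 5 and with a median of 0.723. The pair bRG and aRG-N differed little by comparison, with a ratio of 0.678 at Eomes and a median of 0.889. The aRG-P peak set against the NEC peak gave a ratio of 0.786, with a median of 0.644, so neither of these pairs stood out.

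Fold enrichment set against a neighbour of the same list also put aRG-N first and bRG next. The nearest listed H3K4me3 peak beyond the window, 5.21 to 5.31 kb to its right, was present in all 5 lists and starts between 118415208 and 118415314. In the gene order of the RefSeq table the next protein-coding gene on the side of higher coordinates is Golga4, a gene for a protein of the Golgi apparatus, and the peak was not assigned to it because the builds differ. The strongest Eomes peak of each list reached 0.188 of the fold enrichment of this neighbour in NEC (7.39 against 39.4), 0.367 in aRG-P (4.71 against 12.9), 1.21 in aRG-N (20.3 against 16.8) and 0.617 in bRG (7.96 against 12.9). In N the neighbour had a fold enrichment of 9.36 and the Eomes locus had no peak. Only in aRG-N was the Eomes peak the stronger of the pair. These ratios were computed after the values were seen, and they do not measure a change between cell types.

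**Figure D3:**
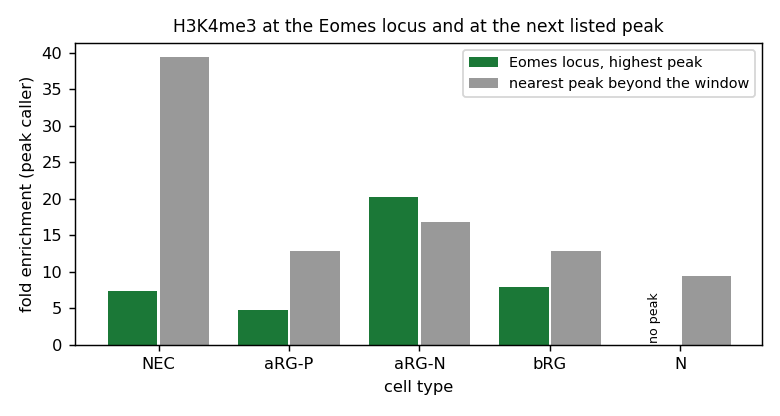
Fold enrichment given by the peak caller (y axis) of the strongest H3K4me3 peak at the Eomes locus (green) and of the nearest listed peak beyond the right edge of the window (grey), by cell type. The Eomes value is above that of the neighbour in aRG-N (20.3 against 16.8) and below it in NEC, aRG-P and bRG, and N has no Eomes peak.

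H3K27me3 was listed at the locus in all 5 cell types, and the listed peaks covered less in aRG-N and bRG than in the others. NEC had 21.9 kb covered, aRG-P 16.0 kb, aRG-N 10.3 kb, bRG 7.42 kb and N 19.6 kb. Thus N and NEC had the longest coverage and bRG the shortest. The aRG-N length leaves out 1 unlisted call inside a stretch of 6936 bp between its peaks, so its order relative to aRG-P is not settled. The bRG list was also the shortest of this mark, with 3476 peaks. The scores that the peak caller gave for H3K27me3 have no settled meaning and are used here only to place a peak within its list.

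In NEC a peak of 15878 bp, from 118376609 to 118392486, was followed by one of 6059 bp, from 118393685 to 118399743. The first had a first score of 64.6 and stood at percentile 97.9 of its list by width and 96.9 by score. The second had a first score of 43.1 and stood at percentile 90.3 by score. By score these were the highest places that any H3K27me3 peak of the locus took in its own list.

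The aRG-P list held 3 H3K27me3 peaks. They measured 3031 bp (118377191 to 118380221, first score 20.7), 7784 bp (118383189 to 118390972, 20.6) and 5172 bp (118393401 to 118398572, 26.6). By score they stood at percentiles 68.2, 67.6 and 87.8 of the list. The middle peak covered 86.6% of the bases that carried H3K4me3 in aRG-N.

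The aRG-N list also held 3 peaks, of which the middle one was short. They measured 4420 bp (118377230 to 118381649, first score 25.8), 2178 bp (118388586 to 118390763, 20.5) and 3734 bp (118393133 to 118396866, 23.3), at percentiles 63.5, 43.5 and 56.0 by score. Between the first and the second lay 6936 bp without a listed peak. Inside that gap a stretch of 4355 bp, from 118384231 to 118388585, was under H3K27me3 in the other 4 lists. The numbers of the aRG-N peaks show that 1 call was made within the gap and is not in the list, so the gap is shorter in the caller's output than here by a length that is unknown.

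The bRG list held 2 peaks, of 3061 bp (118377292 to 118380352, first score 17.9) and 4363 bp (118384231 to 118388593, first score 23.1), at percentiles 28.3 and 73.4 by score. Right of 118388593 bRG had no listed peak for 127.7 kb and no unlisted call either, so 2 stretches that the other 4 lists shared there were not called in bRG. They were 1612 bp from 118388594 to 118390205, under the main bRG H3K4me3 peak, and 2779 bp from 118394088 to 118396866. The middle peaks of bRG and aRG-N met over 8 bp only. The bRG H3K27me3 lay left of the H3K4me3 summit, and the middle aRG-N peak, which starts just before that summit, lay mostly to its right.

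In N the H3K27me3 peaks numbered 4. They measured 6169 bp (118374889 to 118381057, first score 31.0), 6692 bp (118383514 to 118390205, 33.7), 746 bp (118391417 to 118392162, 15.7) and 5954 bp (118394088 to 118400041, 35.0). The 3 long ones stood between percentiles 76.6 and 84.5 by score, and the short one at percentile 0.419, near the weakest of the list. All 10 progenitor H3K27me3 peaks of the locus overlapped an N peak. Over the whole lists 61.9% of NEC, 27.8% of aRG-P, 40.5% of aRG-N and 8.54% of bRG peaks had none there.

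**Figure D4:**
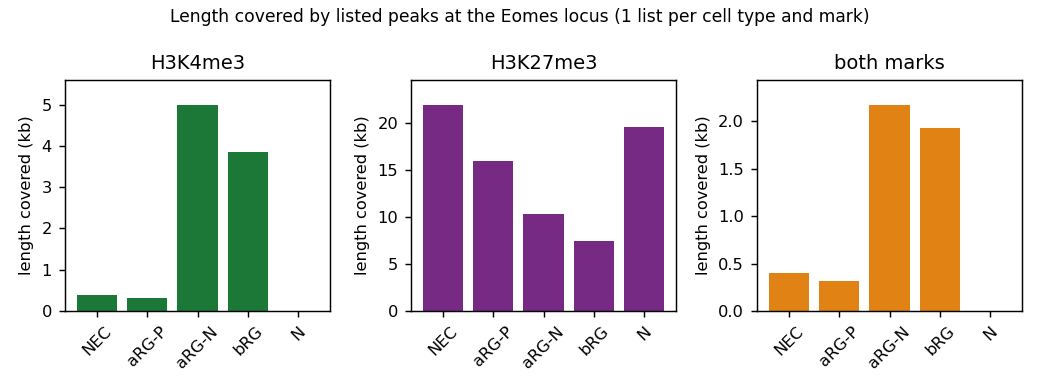
Length in kb covered by listed peaks at the Eomes locus (y axes, from 0, with a scale of their own) by cell type, for H3K4me3, H3K27me3 and the bases under peaks of both. H3K4me3 is longest in aRG-N (5.001 kb) and bRG (3.84 kb), where listed H3K27me3 is shortest (10.3 and 7.42 kb). The 10.3 kb of aRG-N leave out 1 unlisted call.

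Of the 25.2 kb between the first and the last base under H3K27me3 in any list, 97.4% was covered in at least 1 list and 11.7% in all 5. The bases common to all 5 were 2930 bp at the left block, from 118377292 to 118380221, and 8 bp at the middle. A stretch of 646 bp, from 118392487 to 118393132, was covered in none. By covered bases, N and NEC shared most, with 73.2% of the bases of either cell type, and aRG-P and NEC shared 70.7%. The pair bRG and aRG-N shared least, at 20.9%, without the unlisted aRG-N call. This share also depends on the covered lengths, since 100% of the bRG bases lay under H3K27me3 of NEC and of N.

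The H3K27me3 region from 118374889 to 118392486, made by joining the peaks that touch across lists, had a peak in all 5 cell types, as had 2251 of 13700 such regions. In it the mark covered 6598 bp in aRG-N, against 10815 bp in aRG-P, a ratio of 0.610. The median ratio over the 2251 regions was 1.31, and Eomes ranked 2225. For N over aRG-N the lengths were 13607 and 6598 bp, a ratio of 2.06 at rank 66, against a median of 0.969. Against NEC the aRG-N ratio was 0.416 at percentile 3.29, with a median of 1.13.

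For bRG the H3K27me3 ratios of this region to NEC and N were nearer to those of other regions. The mark covered 7424 bp in bRG, against 15878 bp in NEC, a ratio of 0.468 at percentile 24.7, with a median of 0.743. For N over bRG the ratio was 1.83 at percentile 65.8, with a median of 1.52. For bRG over aRG-N the lengths were 7424 and 6598 bp, a ratio of 1.13 at rank 87 and percentile 96.2, with a median of 0.624. Each pair with aRG-N thus stood near an end of the range. The unlisted aRG-N call in the gap is not in the aRG-N length and would raise it. That gap measures 6936 bp, more than the 6598 bp counted, so the places of the pairs with aRG-N are not settled.

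**Figure D5:**
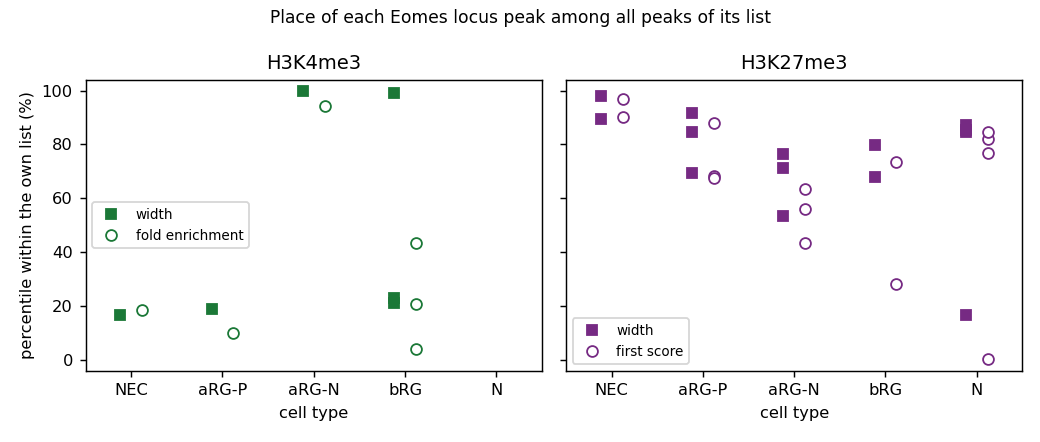
Percentile (y axis) of each Eomes locus peak among all peaks of its own list, by cell type, for width (filled squares) and for fold enrichment or first score (open circles). The aRG-N H3K4me3 peak is near the top by both measures, the main bRG H3K4me3 peak only by width, and the aRG-N H3K27me3 peaks stand between percentiles 43.5 and 63.5 by score.

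Peaks of both marks overlapped in the 4 progenitor cell types. The shared length was 397 bp in NEC and 312 bp in aRG-P, where H3K27me3 covered the whole short H3K4me3 peak. In aRG-N it was 2178 bp, or 43.6% of the H3K4me3 length, and in bRG 1935 bp, or 50.4%. The aRG-N overlap rests on the middle H3K27me3 peak, which is lost when only peaks above the median score of each list are kept. Each of the 6 H3K4me3 peaks overlapped H3K27me3 of its own cell type, a state shared by 25.9% of all NEC, 8.9% of all aRG-P, 14.4% of all aRG-N and 8.41% of all bRG H3K4me3 peaks.

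H3K4me3 without H3K27me3 was found at the locus in aRG-N and bRG alone, over 2823 and 1905 bp. In aRG-N it lay on both sides of the middle H3K27me3 peak, with 1946 bp to the left and 877 bp to the right. In bRG it was the right part of the main peak. The bases of the aRG-N H3K4me3 peak were under H3K27me3 of aRG-N itself for 43.6% of their length. The H3K27me3 of NEC covered all of them, that of aRG-P 86.6%, that of bRG 39.1% and that of N 75.8%. The unlisted aRG-N call could lie over the left part.

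Among the 17229 joined H3K4me3 regions, 240 (1.39%) had H3K4me3 in the 4 progenitor lists and none in N. Of these, 68 (28.3%) also had H3K27me3 in all 5 lists, as Eomes had, which was 0.395% of all regions. With an overlap of at least 50% of the shorter peak asked for, the bRG H3K27me3 peak no longer counted at the Eomes region, which then left this pattern, and 54 regions had it. Among the 11690 regions with H3K4me3 in all 5 cell types, 6.18% had H3K27me3 in all 5. Eomes was the widest of the 68 in aRG-N and had the highest aRG-N fold enrichment, with 5001 bp and 20.3, against medians of 565 bp and 6.66. The locus was chosen with such values known, so its place among the 68 is a description.

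The second widest of the 68 measured 4246 bp in aRG-N, so a wide aRG-N peak was not limited to Eomes. Likeness was the mean difference from Eomes in the percentile of H3K4me3 width over the 4 progenitor lists. It was 35.3 percentile points for the nearest of the other 67 regions and 50.1 at the median. The nearest, on chromosome 18 from 80904391 to 80905541, had an NEC H3K4me3 width of 1151 bp, an aRG-P width of 352 bp, an aRG-N width of 1079 bp and a bRG width of 825 bp. The next was on chromosome 15 from 85565179 to 85566569, with 1391, 378, 993 and 920 bp in the same order of cell types. Both shared the short aRG-P peak with Eomes and had narrower aRG-N and bRG peaks. A region of chromosome X (99044748 to 99045913) was 42.6 points away, a region of chromosome 6 (38303896 to 38304557) 43.4 points, and a region of chromosome 2 (105508450 to 105511291) 43.5 points. The last was 2452 bp wide in aRG-N, at percentile 95.4, and 1629 bp in bRG, at percentile 85.9. Unlike Eomes it was also wide in NEC, at 2842 bp, and in aRG-P, at 1430 bp and percentile 84.7.

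Other listed H3K27me3 peaks were far from the locus. The next listed H3K27me3 peak lay between 114.7 kb (NEC) and 127.7 kb (bRG) to the right of the last locus peak. To the left it lay between 593.4 kb (N) and 596.0 kb (aRG-P) away in 4 lists and 1544 kb away in aRG-N. In these left stretches 3 N calls and 1 NEC call were not in the lists, so H3K27me3 may lie closer there. To the right no call was missing in any list. The next H3K4me3 peak to the left was 326.7 to 328.7 kb from the first locus peak in the 4 progenitor lists.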

How the data were processed

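Cells of 5 types gave 20 immunoprecipitated samples in 10 groups of 2, grouped by cell type and mark in the labels. The 2 Input samples were not analysed here. Bowtie 1.0.0, MACS2, bedtools and mm9 are named in the submitters' processing notes. The deposited lists were called on combined samples and hold peaks near transcripts, per the file headers and peak names. The aRG-P H3K27me3 names mention an excluded set, and the N H3K27me3 names reads extended by 200 bp. For H3K4me3 the deposited values are a fold enrichment (a ratio) and −log10 p and −log10 q values. The H3K27me3 lists hold 3 deposited values per peak, each used as a score because the last one exceeds the one before it where that file type has q and p. The lists also left out 8.63 to 36.6% of the authors' calls, shown by gaps in the peak numbers.

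Peaks sharing at least 1 bp were called overlapping, and touching peaks were joined into regions, with Python 3.11.15, scipy 1.17.1 and matplotlib 3.10.9. Positions are 1-based. No test was made, since there was 1 list per group. Named peaks were all those in the window, the nearest peaks beside it, and the 5 regions with the same presence pattern and the nearest H3K4me3 widths. The members, rules and comparisons were chosen with earlier results of these data known. Length ratios between cell types, ratios to the neighbouring peak and the use of peak numbers were chosen after seeing the data. Code for overlaps was tested on simulated data, the 14801 aRG-N H3K4me3 peaks with 200 removed and 200 added, and found each of these. Promoter bases are RefSeq's, and Eomes matched 1 entry. Alternatives are given in the closing section.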

Additional observations from a re-analysis of the deposited data

How the results depend on the processing

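The number of cell types with H3K27me3 at the locus stayed at 5 under every alternative run, and the number with H3K4me3 stayed between 3 and 5 under all but the following. With every list of a mark cut to equal length, H3K4me3 was left in 2 (aRG-N and bRG) and both marks overlapped in 1. The NEC and aRG-P H3K4me3 peaks were tied by −log10 p at this cut and were dropped by sort order alone. Their loss therefore does not show a dependence on list length. The aRG-N overlap was lost with its middle H3K27me3 peak, at rank 3857 by first score against 3476 peaks kept. With a −log10 q of at least 5 and the H3K27me3 peaks above the median score, H3K4me3 was left in 3, and both marks overlapped in 2. The presence pattern of the Eomes region itself differed under 3 alternatives, so that other patterns were counted than that of the 68 regions. It lacked aRG-P H3K4me3 and aRG-N H3K27me3 at the stricter threshold (1 region with that pattern), also NEC H3K4me3 in cut lists (1 region), and bRG H3K27me3 alone with an overlap of at least 50% (7 regions). The pattern as deposited was then found in 24, 48 and 54 regions. In cut lists the lack of NEC and aRG-P H3K4me3 at Eomes came from the order of ties. A window widened by 20 kb took in the neighbouring H3K4me3 peak, which gave 5. With peaks joined across gaps up to 3000 bp the rank of the H3K4me3 ratio was 2 for aRG-N over aRG-P, 3 for bRG over aRG-P and 3 for bRG over NEC. These ratios had no value with the stricter threshold or in cut lists, where the aRG-P peak is gone. In cut lists it is gone only through the order of ties. By width in place of fold enrichment or score, the widest H3K4me3 peak of NEC stood at percentile 16.9, that of aRG-P at 19.05, that of aRG-N at 99.8 and that of bRG at 98.9. The widest H3K27me3 peak of NEC stood at 97.9, that of aRG-P at 91.7, that of aRG-N at 76.3, that of bRG at 79.7 and that of N at 87.3. By −log10 p the H3K4me3 peak stood at 9.11 in aRG-P and 48.7 in bRG. No paired analysis was possible because each list combines the samples of its group, and no replicate could be left out. Peak widths and numbers move with read depth, which is unknown.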
